A study of Mus musculus with 18 samples.

Results

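The collagen genes of mouse glioma were followed through 5 expression tables: whole Ras-driven tumours, CD11b-positive cells of PDGFB-driven tumours, tumour cell lines, and Ras tumours dissociated for 10x and for Drop-seq single-cell sequencing. A gene was taken as a member when its symbol was Col, a number, the letter a and a number. This rule found 44 genes among 35869 entries of the tumour table and among as many of the line table, 44 among 18268 of the CD11b table, 44 among 28692 of the 10x table and 42 among 28474 of the Drop-seq table, where Col2a1 and Col6a4 had no entry. By family there were 11 fibrillar chains, 6 type IV chains of basement membranes, 6 type VI chains, 9 chains of fibril-associated collagens (FACIT), 4 transmembrane chains, 3 short chains, 2 multiplexins and 3 others (Col7a1, Col26a1 and Col28a1).

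All mice were of the Boy/J strain and the series holds 18 libraries in 8 groups. The driver of the Ras tumours was HRasV12 with a dominant negative form of p53. Whole Ras tumours came from mice given vehicle (n = 4, also labelled untreated) or PLX3397 (n = 4), an inhibitor of CSF1R, the receptor that macrophages and microglia need to survive. Both were given daily by gavage, PLX3397 at 100 mg/kg, starting 7 days after implantation and ending when the mice were moribund. The CD11b-positive fraction was pulled with magnetic beads from PDGFB tumours of 2 mice given PLX3397 and of 1 given vehicle, for 3 days from day 14. The 2 Ras lines and 3 PDGF lines are untreated cultures of tumour cells. The Ras lines grew without serum with EGF and FGF at 20 ng/mL, and the PDGF lines in another medium that also held B27, N2, PDGF-BB and PDGF-AA, so driver and medium cannot be told apart. The 10x and Drop-seq libraries are 1 untreated Ras tumour library each, from tissue digested with collagenase IV and passed through a 40 µm filter. Ages and sexes were not given, and p-values measure the spread between mice or lines of these groups.

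Collagens are secreted or membrane proteins whose chains wind in sets of 3 into a triple helix. Fibrillar chains (types I, III, V and XI) build fibres, type IV forms the sheet of the basement membrane around vessels, types XV and XVIII sit at the edge of that sheet, type VI forms beaded filaments, and FACIT chains decorate fibres. In normal brain, collagen is largely confined to vessels, meninges and the perivascular space. Chains are hydroxylated and folded in the cell, trimmed and cross-linked outside it, bound by receptors such as DDR1, DDR2 and integrins, and cut by matrix metalloproteinases.

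Positions are those of GRCm38. The fibrillar gene Col3a1 lies on the plus strand of chromosome 1, 45311538 to 45349706, and Col5a2 on the minus strand at 45374321 to 45503282, 24614 bases away. Col1a1 spans 94936224 to 94953042 of chromosome 11 and its partner chain Col1a2 spans 4504814 to 4541544 of chromosome 6, both on the plus strand. Col11a1 covers 114030540 to 114220718 of chromosome 3 on the plus strand. Other members described at length are Col14a1 (chromosome 15, 55307750 to 55520803, plus), Col16a1 (chromosome 4, 130047840 to 130099283, plus), Col15a1 (chromosome 4, 47208161 to 47313167, plus), Col18a1 (chromosome 10, 77052178 to 77166548, minus) and Col10a1 (chromosome 10, 34389981 to 34397085, plus).

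The type IV genes are arranged head to head. Col4a1 (chromosome 8, 11198423 to 11312826, minus) and Col4a2 (11312805 to 11449287, plus) overlap by 22 bases, Col4a3 and Col4a4 are 71 bases apart, and Col4a5 and Col4a6 are 1308 bases apart. Promoter stretches of 3 loci are printed from the RefSeq promoter table of GRCm38.p6, all written 5′ to 3′ on the plus strand. Col3a1 is shown as a fibrillar gene whose transcripts came almost wholly from 1 cluster of single cells, Col11a1 as a fibrillar gene with the reverse distribution, and the Col4a1 and Col4a2 stretch for the overlap of the starts of the pair.
Col3a1, chr1:45311288-45311537, with a TATA box sequence in capitals: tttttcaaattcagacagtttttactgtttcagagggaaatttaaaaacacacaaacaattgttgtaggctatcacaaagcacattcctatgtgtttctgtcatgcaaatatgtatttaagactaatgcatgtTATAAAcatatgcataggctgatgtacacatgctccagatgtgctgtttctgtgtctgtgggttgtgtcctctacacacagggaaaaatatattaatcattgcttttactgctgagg
Col11a1, chr3:114030290-114030539, with both GC boxes and a CCAAT box, the latter read from the other strand, in capitals: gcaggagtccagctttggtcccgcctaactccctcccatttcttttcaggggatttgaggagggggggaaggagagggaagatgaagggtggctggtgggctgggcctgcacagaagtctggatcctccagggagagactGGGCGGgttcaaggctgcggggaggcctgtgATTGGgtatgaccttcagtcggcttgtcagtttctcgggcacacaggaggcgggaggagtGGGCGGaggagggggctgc
Col4a1 and Col4a2, chr8:11312801-11312830, with the 22 bases held by both gene annotations in capitals: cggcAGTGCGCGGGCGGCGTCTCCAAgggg

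The promoter table held 38 entries of 300 bases for 35 of the 44 genes. Each was searched on both strands for the letters of 3 motifs, and a match of one may share bases with a match of another. The GC box, searched as GGGCGG, stood in 60.5% of the collagen entries and in 35.7% of all 32851 entries. For the CCAAT box, searched by those letters, the shares were 34.2% and 37.4%. For the TATA box, searched as TATAAA, they were 13.2% and 13.6%. GC content had a median of 59.8% in the collagen entries and 52.7% in all. The Col3a1 entry was among the poorest in GC (37.7%), against 62.3% for Col11a1. These are descriptions of letters in a window.

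Depth was 31.2 to 35.8 M counts (units of 1e6) per whole tumour, 26.8 to 30.9 M per CD11b library and 31.9 to 35.8 M per line. Among counts of 1 to 10, even numbers made up 62.8% to 69.4% in the tumours, 64.4% to 67.0% in the lines and 39.9% to 41.9% in the CD11b libraries, the cause of which was not tested. The whole tumours fell into 2 sets by Ddx3y, a gene of the Y chromosome. It stood at 19.5 to 33.2 counts per M (CPM) in replicates 1 and 2 of both treatments and at 0 to 0.12 CPM in replicates 3 and 4, while Xist stood at 249 to 730 CPM in all 8 libraries. Each set holds 2 tumours of each treatment. For several collagens the sets stood further apart than the treatments, so values within each set are given where they bear on a result.

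In the whole Ras tumours, the question was whether collagen transcripts differ after PLX3397. Taken per kb of exon in the vehicle tumours, Col1a1 (187 CPM per kb) and Col18a1 (182) stood highest, followed by Col3a1 (104), Col6a1 (90.8), Col4a1 (81.3), Col5a1 (57.8) and Col4a2 (57.4). None of the 42 members tested was called at an adjusted p under 0.05 by edgeR's quasi-likelihood test, against 0.0% of all 18366 genes. The members' median log2 fold was 0.03, with 22 positive and 20 negative. Within the tumours with Ddx3y it was 0.24, with 30 positive and 14 negative, and within those without it -0.45, with 12 positive and 30 negative. A single member, Col14a1, had an unadjusted p under 0.05, and it was lower under PLX3397, as were 3.11% of all genes at that level.

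Col14a1, a FACIT chain that binds to type I fibrils, stood at 1.53, 1.06, 1.70 and 1.05 CPM in the 4 PLX3397 tumours and at 8.72, 6.74, 6.91 and 13.7 CPM in the 4 vehicle tumours. The groups did not overlap, which held for no other member and, in this direction, for 1.7% of all genes. Its log2 fold was -2.80 (SE 0.36, unadjusted p = 4.74e-05, adjusted p = 0.319), so the difference did not pass the test over all genes in edgeR. DESeq2 did call it (-2.78, adjusted p = 6.10e-11) and called 0.904% of all genes as lower. Within the libraries with Ddx3y the log2 fold was -2.62, and within those without it -2.92. Markers of other cell types were read beside it. The summed level of 10 macrophage markers was 226 to 733 CPM under PLX3397 and 751 to 1277 CPM under vehicle, with a median log2 fold of -0.58. For 10 microglia markers the sums were 185 to 593 and 345 to 708 CPM, with a median of -0.87. Positive log2 folds were found for 8 of 8 oligodendrocyte markers (median 0.69), 8 of 9 astrocyte markers (0.63) and 4 of 5 T cell markers (0.81), and for 0 of 5 erythroid markers (-0.88). No marker of these lists was called or was at 0 in a whole group, and their part in the Col14a1 difference was not tested. In bulk tissue, fewer cells of a type and less RNA per cell cannot be told apart.

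The fibrillar chains varied widely within each group. Col1a1, a chain of type I collagen, stood at 490, 1915, 711 and 782 CPM under PLX3397 and at 1589, 856, 819 and 1658 CPM under vehicle, a log2 fold of -0.39 (SE 0.46). Its groups overlapped, with the highest library of all in the PLX3397 group. Col3a1, which forms type III fibres, stood at 651, 2210, 602 and 492 CPM against 1284, 1192, 562 and 1061 CPM (log2 fold -0.10, SE 0.51). Col5a1, a regulatory chain of fibrils, stood at 305, 743, 320 and 302 CPM against 538, 395, 315 and 714 CPM (-0.29, SE 0.39). The second PLX3397 tumour was the highest of all 8 for each of these 3 chains. Of the 11 fibrillar chains, 3 had a positive and 8 a negative log2 fold, with a median of -0.15.

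Among the chains of basement membranes, Col4a1, the main chain of type IV collagen, stood at 369, 887, 701 and 613 CPM under PLX3397 and at 531, 717, 539 and 641 CPM under vehicle (log2 fold 0.04, SE 0.26). Its partner Col4a2 stood at 236, 521, 449 and 396 CPM against 340, 448, 333 and 398 CPM (0.04, SE 0.24). Col18a1, whose C-terminal fragment is endostatin, stood at 715, 1253, 1532 and 1309 CPM against 1115, 1143, 1206 and 1651 CPM (-0.13, SE 0.27). All 3 overlapped between treatments. Of the 6 type IV chains 5 were positive, with a median of 0.19.

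Among the type VI chains, Col6a1 stood at 410, 948, 281 and 296 CPM under PLX3397 and at 423, 456, 265 and 447 CPM under vehicle (log2 fold 0.23, SE 0.41). Col6a2 stood at 185, 447, 176 and 167 CPM against 213, 229, 166 and 291 CPM (0.06, SE 0.36). Both groups overlapped and the second PLX3397 tumour was again the highest. Summed over all 44 genes, collagen transcripts came to 4231 to 10809 CPM under PLX3397 and 5757 to 9522 CPM under vehicle.

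**Figure D1:**
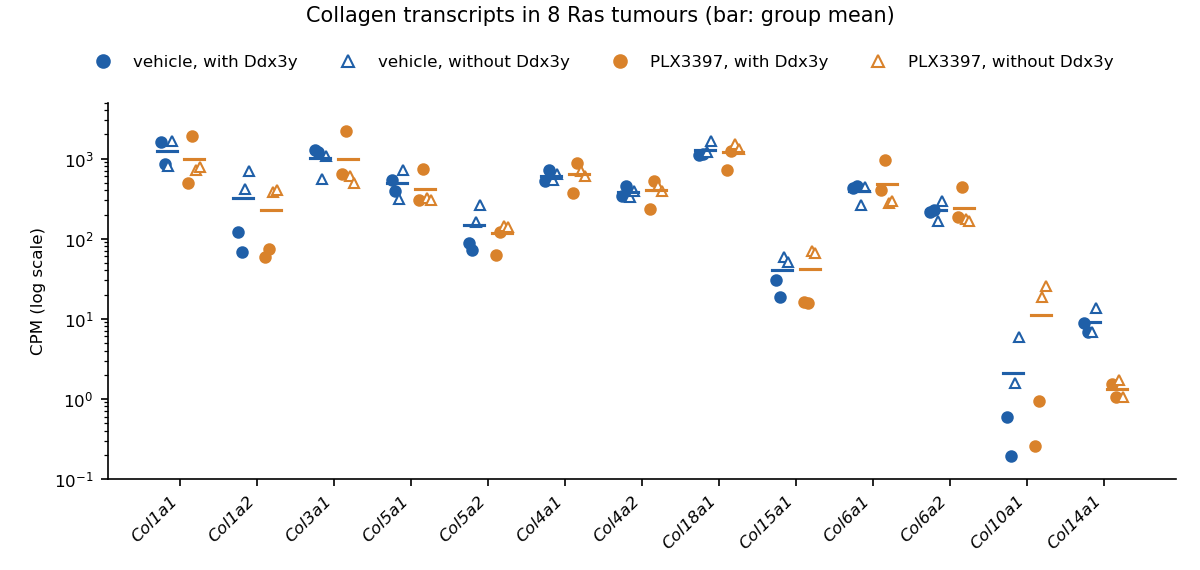
Levels of 13 collagen genes in the 8 whole Ras tumours, in CPM on a log axis; circles are libraries with Ddx3y, triangles libraries without it, blue vehicle, orange PLX3397, and bars group means. Col14a1 is the only one whose treatments do not overlap, while Col1a2, Col5a2, Col15a1 and Col10a1 separate circles from triangles.

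Genes that make, bind and cut collagen were read from 5 lists. None of the 19 genes of collagen modification and folding (median log2 fold -0.12), the 13 of processing and cross-linking (-0.07), the 8 fibril-associated proteoglycans tested of 9 (0.09), the 9 receptors tested of 10 (-0.13) or the 9 collagen-cleaving enzymes (-0.70) was called by edgeR. Mmp9, a gelatinase, stood at 11.7 to 21.3 CPM under PLX3397 and 14.5 to 491 CPM under vehicle (log2 fold -3.65, SE 1.12). The protease Ctsk stood at 7.85 to 13.4 and 9.53 to 268 CPM (-3.44, SE 1.05). The inhibitory receptor Lair1, found on leukocytes, stood at 3.83 to 25.3 and 23.0 to 62.6 CPM (-1.68), and Ddr1 at 163 to 181 and 137 to 153 CPM (0.24). Ddr1 was the only one of these 4 whose groups did not overlap, and the share of all genes higher in that way is not given here.

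Libraries with and without Ddx3y were compared with treatment as a covariate, a comparison added after the split had been seen. No member passed the test in edgeR, where 0.0109% of all genes did. An unadjusted p under 0.05 was reached by 6 of 42, a smaller share than the 20.1% of all genes. Without the filter on low counts, or without the third vehicle tumour, 1 member, Col1a2, passed as lower (adjusted p = 0.0187 and 0.0366), where 0.00667% and 0.059% of genes did. DESeq2 called 4 members as lower with Ddx3y (Col1a2, Col5a2, Col10a1 and Col15a1), beside 2.87% of all genes. These 4 of 42 did not overlap between the sets, a share near the 8.22% of all genes in that direction. That count therefore does not set the collagens apart from other genes.

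Col1a2, the second chain of type I collagen, stood at 59.6 and 74.5 CPM in the PLX3397 tumours with Ddx3y and at 120 and 68.9 CPM in the vehicle tumours with it. In the tumours without Ddx3y it stood at 377 and 410 CPM under PLX3397 and at 416 and 693 CPM under vehicle. The sets did not overlap (log2 fold -2.60, SE 0.26, adjusted p = 0.0811), whereas its partner Col1a1 ranged across both. The usual type I molecule joins both chains. The ratio of Col1a2 to Col1a1, both in CPM, was 0.0389 to 0.122 in the tumours with Ddx3y and 0.418 to 0.530 in those without it, and 0.279 to 0.676 in the 3 CD11b libraries.

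Col15a1, a basement membrane multiplexin, stood at 16, 15.5, 30.7 and 18.9 CPM in the libraries with Ddx3y and at 70.9, 65.7, 59.8 and 51.7 CPM in those without (log2 fold -1.67, SE 0.24, adjusted p = 0.158). Col5a2, the partner of Col5a1 in type V collagen, stood at 61.6, 121, 88.3 and 71.9 CPM against 142, 139, 163 and 263 CPM (-1.06, SE 0.31, adjusted p = 0.167). In both genes every library with Ddx3y was below every library without it. Col10a1, known from hypertrophic cartilage, stood at 0.254, 0.941, 0.599 and 0.192 CPM against 18.5, 25.4, 1.55 and 5.95 CPM (-4.29, SE 0.80, adjusted p = 0.161). The FACIT gene Col19a1 ran the other way, at 17.0, 5.71, 3.81 and 14.7 CPM against 2.54, 1.69, 3.77 and 0.124 CPM (2.34, SE 0.91, adjusted p = 0.231), and it too did not overlap, as was so for 5.4% of all genes in that direction.

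Other genes were read beside this split. The cross-linking enzyme Lox had a log2 fold of -2.51 and the collagenase Mmp13 of -2.50, and neither was called. Summed pericyte markers stood at 298 to 434 CPM with Ddx3y and 199 to 288 CPM without, fibroblast markers at 244 to 448 and 266 to 291 CPM, endothelial markers at 332 to 408 and 254 to 392 CPM, and markers of dividing cells at 580 to 875 and 983 to 1134 CPM. Pericyte and dividing cell sums did not overlap between the sets. The median log2 fold was 0.23 over pericyte markers, 0.08 over fibroblast and 0.04 over endothelial markers. It was 1.22 over astrocyte markers (8 of 9 positive), 1.20 over oligodendrocyte markers (8 of 8) and 1.20 over neuron markers (6 of 8). Microglia markers had a median of 1.13 (9 of 10 positive) and macrophage markers of 0.48 (10 of 10). No marker of these lists was called. The part of these differences in the collagen values was not tested. Replicates 1 and 2 in each treatment make 1 set, so anything else they share cannot be told apart from Ddx3y.

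**Figure D2:**
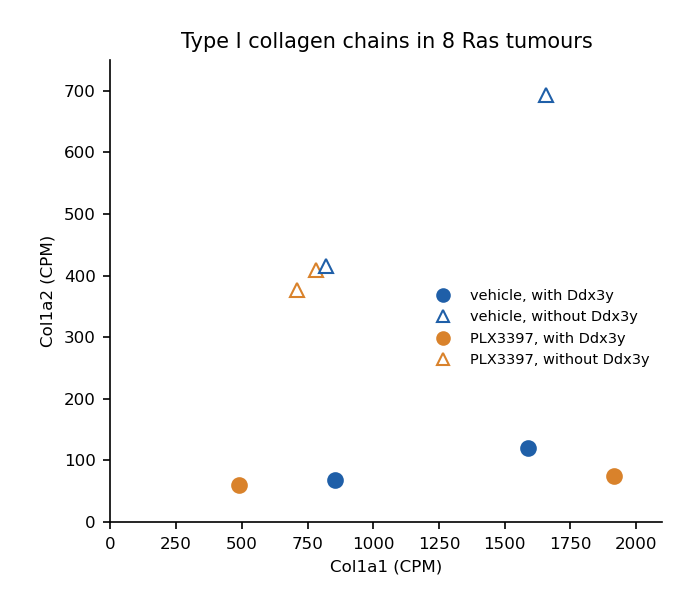
Col1a2 against Col1a1 in the 8 whole Ras tumours, both in CPM. Tumours with Ddx3y lie between 59.6 and 120 CPM of Col1a2 and those without it between 377 and 693 CPM, over overlapping ranges of Col1a1.

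The CD11b-positive cells of PDGFB tumours were compared after 3 days of PLX3397. Summed over the 44 genes, collagen transcripts came to 859 CPM under vehicle and to 2497 and 4175 CPM in the PLX3397 pair. Of 39 members tested, edgeR called 11 that rose and 1, Col14a1, that fell, against 6.35% of all 15052 genes (4.57% higher and 1.78% lower). The members' median log2 fold was 2.00, beside 0.01 over all genes tested. Another 17 members were higher at an unadjusted p under 0.05 without a call, so 28 of 39 were higher and 1 lower at that level, against 18.2% and 11.1% of all genes. With 1 vehicle library, the spread rests on the PLX3397 pair, and the vehicle library was assumed to vary like them. With 1 library in a group, 82.9% of all genes did not overlap.

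Of the fibrillar chains 3 of 10 tested rose. Col3a1 measured 72.9 CPM under vehicle and 351 and 489 CPM under PLX3397 (log2 fold 2.46, SE 0.28, adjusted p = 0.0345). Col5a1 stood at 38.6 CPM and at 169 and 300 CPM (2.54, SE 0.41, adjusted p = 0.0464), and its relative Col5a3 at 6.83 CPM and at 28.5 and 45 CPM (2.36). For all 3 the PLX3397 libraries both exceeded the vehicle library. Col1a1 stood at 38.8 CPM and at 141 and 306 CPM, which did not pass the test (2.46, SE 0.53, adjusted p = 0.0667). Col1a2 stood at 26.2 CPM and at 39.5 and 172 CPM (1.95, SE 0.92, adjusted p = 0.243). The 2 PLX3397 libraries were far apart for that chain, the second of them being the higher. Col5a2 stood at 14.8 CPM and at 39.3 and 84.1 CPM, Col11a1 at 1.04 CPM and at 2.35 and 3.79 CPM, and Col27a1 at 15 CPM and at 27.7 and 27 CPM, none of them called. Col2a1, the cartilage chain, had 0.0324 CPM under vehicle and 0.896 and 0.666 CPM under PLX3397.

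Of the type IV chains 2 of 6 rose, Col4a5 from 8.16 CPM to 41.3 and 40.7 CPM (log2 fold 2.26, SE 0.19, adjusted p = 0.0305) and its head-to-head neighbour Col4a6 from 2.79 CPM to 12.1 and 11.3 CPM (2.00, SE 0.29, adjusted p = 0.039). These are the X-linked pair. The main vascular pair did not pass the test. Col4a1 measured 146 CPM under vehicle and 455 and 737 CPM under PLX3397 (1.96, SE 0.36, adjusted p = 0.0528), and Col4a2 at 92 CPM and at 218 and 446 CPM (1.79, SE 0.48, adjusted p = 0.0967). DESeq2 called both, as part of 18 members and of 13.1% of all genes, and with all genes kept, however low, edgeR called 16 members and 10.4% of genes. Among multiplexins, Col18a1 rose from 109 CPM to 395 and 583 CPM (2.10, SE 0.31, adjusted p = 0.0425). Col15a1 stood at 34.9 CPM and at 48.9 and 60.2 CPM (0.58, SE 0.19, adjusted p = 0.132), a smaller difference than that of any called member.

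Of the type VI chains 2 of 5 rose. Col6a1 measured 27.1 CPM under vehicle and 144 and 183 CPM under PLX3397 (log2 fold 2.53, SE 0.23, adjusted p = 0.0305), and Col6a2 at 21.3 CPM and at 79.8 and 111 CPM (2.10, SE 0.26, adjusted p = 0.0349). Col6a3, the third chain of the usual type VI molecule, stood at 28.1 CPM and at 69.1 and 147 CPM without a call (1.87, adjusted p = 0.0959). Col6a4 and Col6a5 stayed at or below 2.16 CPM in all 3 libraries. The short chain Col8a1, made by vascular cells, rose from 8.52 CPM to 34.7 and 62.2 CPM (2.44, SE 0.43, adjusted p = 0.0493). Col7a1, the chain of anchoring fibrils, stood at 14.1 CPM and at 39.6 and 119 CPM (2.42, SE 0.73, adjusted p = 0.118), with the PLX3397 libraries apart. None of the 4 transmembrane chains was called, and the 3 of them with an unadjusted p under 0.05 (Col13a1, Col23a1 and Col25a1) stayed at or below 1.93 CPM.

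Of the FACIT chains 2 of 7 tested rose and 1 fell, with 6 positive and 1 negative log2 folds (median 1.20). Col12a1 rose from 19.4 CPM to 86.3 and 143 CPM (log2 fold 2.49, SE 0.37, adjusted p = 0.0426). Col16a1 rose from 6.35 CPM to 27.2 and 41.8 CPM (2.38, SE 0.34, adjusted p = 0.0415). Col9a2, Col9a3, Col20a1 and Col22a1 were higher in both PLX3397 libraries without a call. Col14a1 fell from 106 CPM to 15.8 and 28.7 CPM (-2.31, SE 0.35, adjusted p = 0.0435). Of the 39 tested, Col14a1 and Col11a2 were the members lower in both PLX3397 libraries. Col11a2 stood at 12.4 CPM and at 10.8 and 10.3 CPM (-0.30) and was not called.

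**Figure D3:**
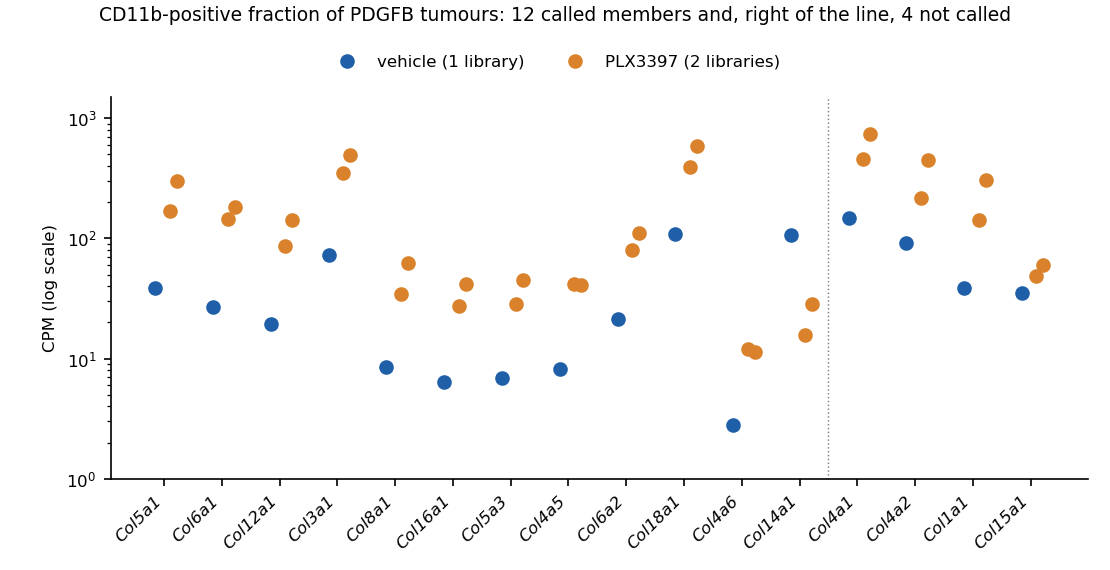
Levels in the 3 CD11b-positive libraries, in CPM on a log axis, of the 12 called members and, right of the line, of Col4a1, Col4a2, Col1a1 and Col15a1; each point is a library. Of the called members, Col14a1 is the one with the vehicle library on top, at 106 CPM.

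Marker lists of other cells were read beside these values. The summed level of astrocyte markers was 126 CPM in the vehicle library and 706 to 752 CPM under PLX3397 (7 of 9 markers rose), of oligodendrocyte precursor markers 29.4 and 124 to 135 CPM (3 of 9 rose), and of neuron markers 24.6 and 116 to 122 CPM (4 of 8 tested rose). Fibroblast markers summed to 27.4 and 84.7 to 145 CPM (1 of 9 rose, median log2 fold 1.91). The 1 that rose was Pcolce, the same gene as given below among the processing genes. Endothelial markers summed to 207 and 283 to 477 CPM (1 of 10 rose, median 1.37), pericyte markers to 263 and 390 to 443 CPM (1 of 9 rose) and smooth muscle markers to 21.1 and 40.9 to 126 CPM (0 of 6 called). Oligodendrocyte markers summed to 203 and 371 to 508 CPM (3 of 8 rose, median 1.98), neural progenitor markers to 118 and 283 to 424 CPM (2 of 6 tested rose) and neutrophil markers to 307 and 524 to 811 CPM (0 of 9 called, 9 positive, median 1.33). Erythroid markers summed to 29.2 and 2.50 to 15.6 CPM, with 4 of 4 tested negative (median -1.72) and none called. In the vehicle library 1 neuron, 1 neural progenitor and 1 erythroid marker were at 0. Microglia markers summed to 3397 CPM and to 2607 to 3500 CPM (1 of 10 fell) and macrophage markers to 6222 CPM and to 5845 to 5922 CPM (0 of 10 called). Markers of dividing cells fell (5 of 9), from a sum of 1142 CPM to 258 to 388 CPM. Their part in the collagen values was not tested.

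Some genes of collagen handling were called as well. Of 12 genes of processing and cross-linking tested, 5 rose and none fell (median log2 fold 2.17), among them Pcolce, which speeds the trimming of procollagen (from 11.1 CPM to 46.7 to 54.3 CPM, log2 fold 2.12, adjusted p = 0.0305), and the lysyl oxidase Loxl1 (from 2.20 CPM to 11.1 to 17.2 CPM, 2.62). Of 19 modification genes 2 rose (median 1.23), P3h4 from 1.78 CPM to 10.3 to 10.5 CPM and P3h3 by a log2 fold of 1.31. Both discoidin receptors rose, Ddr1 from 12.9 CPM to 53.0 to 61.8 CPM (2.09) and Ddr2 from 18.5 CPM to 62.1 to 84.7 CPM (1.92), as 2 of 9 receptors tested. Prelp, a small proteoglycan of the fibril surface, rose from 2.75 CPM to 22.6 to 36.8 CPM (3.37), 1 of 8 proteoglycans tested. Of 9 cleaving enzymes 1 fell: the collagenase Mmp13, from 656 CPM to 164 to 260 CPM (-1.70, adjusted p = 0.0498), while 5 of the 9 were positive and the list's median was 0.07.

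The tumour lines of each driver differed greatly among themselves in collagen levels. EdgeR called none of the 35 members tested, nor any other gene (0.0% of 17475). An unadjusted p under 0.05 was reached by 7 members that were higher and 5 that were lower in the Ras lines, where 8.8% and 7.46% of all genes reached it. The median log2 fold over members was -0.04. Ranges of Ras and PDGF lines did not overlap for 5 members that were higher and 10 that were lower in the Ras lines, against 15.5% and 22.2% of all genes. DESeq2 called 12 members and 12.1% of all genes. Leaving out Ras line 2, edgeR called 9 members, 7 higher and 2 lower, where 5.45% and 5.68% of genes were called.

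Members of basement membranes and fibrils were among those higher in the Ras lines. Col18a1 stood at 1503 and 177 CPM in the 2 Ras lines and at 12.1, 2.97 and 21.5 CPM in the 3 PDGF lines (log2 fold 6.23, SE 1.34, adjusted p = 0.215). Col4a5 stood at 122 and 57.4 CPM against 3.75, 3.73 and 8.23 CPM (4.20, SE 0.58, adjusted p = 0.204), and Col5a1 at 542 and 56.1 CPM against 28.7, 9.97 and 23.4 CPM (3.98, SE 1.07, adjusted p = 0.231). Both Ras lines were above all 3 PDGF lines for each of these genes. The transmembrane chain Col25a1 also did not overlap, at 5.0 and 1.25 CPM against 0.381, 0.734 and 0.122 CPM.

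Type VI chains were high in Ras line 1 alone. Col6a1 stood at 441 and 8.34 CPM in the Ras lines and at 1.76, 0.367 and 11 CPM in the PDGF lines (log2 fold 5.83, SE 2.13, adjusted p = 0.292). Col6a3 stood at 87.4 and 0.251 CPM against 0.264, 0.978 and 0.366 CPM (6.48, SE 2.18), and without Ras line 1 its log2 fold turned to -1.09. Col6a2 stood at 57.0 and 3.26 CPM against 1.35, 0.795 and 4.42 CPM (3.92, SE 1.39). Col4a1 showed the same gap between the Ras lines, at 828 and 23.1 CPM against 82.8, 44 and 86.3 CPM (2.72, SE 1.34), and its log2 fold turned to -1.62 without Ras line 1. Ras line 2 was thus inside or below the PDGF range for each of these 4 genes.

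Members below every PDGF line in both Ras lines included FACIT and type XI chains, none of them called. Of 8 FACIT members tested 7 were negative, with a median log2 fold of -2.43. Col22a1 was the positive one, at 22.5 and 0.502 CPM against 0.645, 1.68 and 0.549 CPM, and Col12a1 and Col20a1 overlapped between the drivers. Col9a1, which coats cartilage fibrils, stood at 0.335 and 1.94 CPM against 71.0, 226 and 28.4 CPM (-6.56, SE 1.47, adjusted p = 0.218), and Col9a3 at 1.68 and 8.62 CPM against 29.8, 342 and 90.2 CPM (-4.89, SE 1.48, adjusted p = 0.247). Col16a1 stood at 54.0 and 54.6 CPM against 85.6, 156 and 108 CPM (-1.04, SE 0.31, adjusted p = 0.245). In all 3 genes both Ras lines were below every PDGF line. Col11a1 stood at 2.82 and 93.5 CPM against 202, 1304 and 302 CPM (-3.65, SE 1.75, adjusted p = 0.37). Col11a2 stood at 1.12 and 2.32 CPM against 9.05, 742 and 46.2 CPM (-7.24, SE 2.47, adjusted p = 0.276). Col15a1 was listed at 0 and 0.0314 CPM in the Ras lines and at 0.879, 115 and 3.93 CPM in the PDGF lines. PDGF line 2 was the highest line for Col9a1, Col9a3, Col11a1, Col11a2, Col15a1 and Col16a1.

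Lineage markers differed beside these genes. Summed oligodendrocyte precursor markers stood at 1337 to 2925 CPM in the Ras lines and 6023 to 7595 CPM in the PDGF lines, and all 9 markers had a negative log2 fold (median -3.10, 0 called). Chondrocyte markers, a list included because types II, IX and XI are cartilage collagens, summed to 2.54 to 2.82 CPM and 24 to 795 CPM, with PDGF line 2 at the top, and 2 of them were at 0 in both Ras lines. Fibroblast markers summed to 56.4 to 174 CPM and 4.72 to 7.07 CPM, with 2 of 9 tested, both positive and none called. Most of each of these sums was Pcolce, which is also among the processing genes given below. Pericyte markers summed to 73.6 to 175 CPM and 6.33 to 23.6 CPM. Of the 6 pericyte markers tested, however, 3 were positive and 3 negative (median log2 fold 0.63, 0 called). The part of these differences was not tested. Ddx3y stood at 1.17 and 64.9 CPM in the Ras lines and at 0.53, 30.2 and 55.6 CPM in the PDGF lines.

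**Figure D4:**
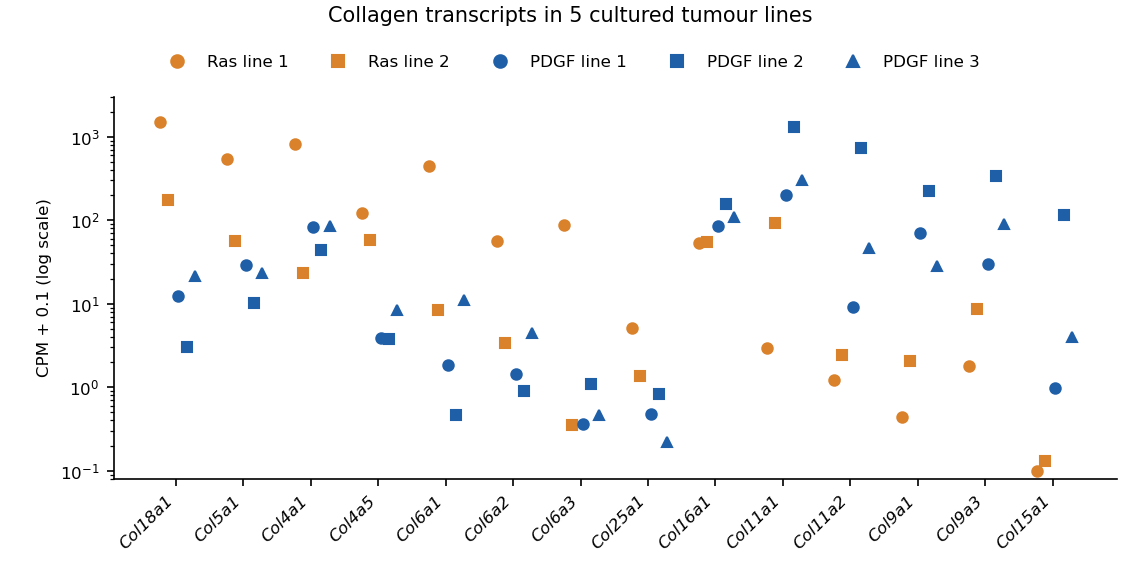
Levels of 14 collagen genes in the 2 Ras and 3 PDGF lines, as CPM + 0.1 on a log axis; each point is a line. Ras lines lie above all PDGF lines for Col18a1, Col4a5, Col5a1 and Col25a1, and below them for Col9a1, Col9a3, Col11a1, Col11a2, Col15a1 and Col16a1.

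None of the collagen-handling genes was called between the lines. Of 19 modification genes 16 had a positive log2 fold in the Ras lines (median 0.83). Fkbp10, a collagen chaperone, stood at 24.3 to 60.5 CPM in the Ras lines and 0.825 to 3.35 CPM in the PDGF lines (log2 fold 4.19). Pcolce stood at 56.0 to 154 and 3.72 to 5.64 CPM (4.64), and Mrc2, which takes up collagen fragments, at 30.5 to 287 and 2.48 to 7.16 CPM (5.04). The ranges did not overlap in any of these 3.

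Whole tumours and lines can be set side by side only as levels, since the tables were made separately and no test was run. Both Ras lines lay below every vehicle tumour for 23 of the 44 members, and ranges overlapped for 21. The share of all genes below in the same way was not computed, so the 23 cannot be read as particular to the collagens. Col1a1 stood at 819 to 1658 CPM in the vehicle tumours and 0.376 to 3.32 CPM in the Ras lines, Col3a1 at 562 to 1284 and 0.0627 to 11.1 CPM, and Col8a1 at 96.8 to 174 and 0 to 0.196 CPM. Col18a1 overlapped, at 1115 to 1651 and 177 to 1503 CPM, as did Col4a5 (51.9 to 87.6 and 57.4 to 122 CPM), Col20a1 (12.5 to 22.4 and 13.9 to 16.3 CPM) and Col11a1 (6.53 to 17.6 and 2.82 to 93.5 CPM).

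Single cells of Ras tumours placed the members in clusters. The 10x library held 59.3 M unique molecular identifiers (UMIs) in 4384 barcodes, of which 3320 were kept, with a median of 8351 UMIs. The Drop-seq library held 9.67 M UMIs in 5000 barcodes, of which 4901 were kept, with a median of 1396 UMIs. The libraries shared 0 barcodes. Clusters were made without the collagen genes. With 1 library each there is no test, and intervals in brackets are exact Poisson 95% limits that cover counting error only. In the 10x library Ddx3y stood at 50.8 CPM and Xist at 0.128 CPM. In Drop-seq Xist stood at 332 CPM and Ddx3y had no entry, so a difference between the 2 libraries was seen for Xist only.

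The 10x library had most UMIs for Col11a1 (12770 UMIs, 233 CPM), Col4a1 (7281, 133 CPM), Col18a1 (4237, 77.4 CPM), Col4a2 (3947, 72.1 CPM) and Col16a1 (3762, 68.8 CPM). Col1a1 followed with 2607 UMIs (47.6 CPM), Col3a1 with 1333, Col20a1 with 1159, Col5a2 with 955, Col1a2 with 904, Col6a3 with 887 and Col4a5 with 862. In Drop-seq the order was Col18a1 (2272 UMIs, 238 CPM), Col11a1 (2146, 225 CPM), Col16a1 (1152, 121 CPM), Col4a1 (522), Col1a2 (389), Col1a1 (357), Col4a2 (324), Col3a1 (187), Col9a3 (173), Col4a5 (129), Col5a3 (125) and Col15a1 (124). Col10a1 and Col6a6 had 0 UMIs in 10x, which allows up to 0.0548 CPM.

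In each library 1 small cluster had the highest summed collagen level. In 10x this was a cluster of 55 cells (1.66% of cells) led by Igfbp7, Mgp and Cldn5, with 10 of 10 endothelial markers raised and with the pericyte marker Rgs5 and the fibroblast marker Dcn also among its leading genes, so it is called here the Igfbp7-Cldn5 cluster. Collagens summed to 11072 CPM there, against 139 to 1197 CPM in the other clusters of at least 50 cells. Col4a1 stood at 3372 CPM (3284 to 3462), Col4a2 at 2088 (2019 to 2159), Col1a1 at 1535 (1475 to 1595) and Col3a1 at 791 (749 to 836). Of all UMIs of a gene, this cluster held 98% for Col3a1, 97.1% for Col1a1, 96.4% for Col6a3, 94.0% for Col1a2, 89.9% for Col5a2, 89.9% for Col15a1, 87.3% for Col4a2 and 76.4% for Col4a1. For Col1a1, Col1a2, Col3a1 and Col5a2 together it held 5547 of 5799 UMIs (95.7%, exact Clopper-Pearson 95% interval 95.1% to 96.2%).

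In Drop-seq the matching cluster held 80 cells and was led by Igfbp7, Mmp9 and Rgs5, with Cldn5 among its leading genes. Collagens summed to 13273 CPM there, against 254 to 863 CPM in the other clusters of at least 50 cells. Col4a1 stood at 2526 CPM (2287 to 2783), Col1a2 at 2210 (1987 to 2452), Col1a1 at 2074 (1858 to 2308), Col4a2 at 1610 and Col3a1 at 1015. The same 4 fibrillar genes had 924 of 1018 UMIs there (90.8%, 88.8% to 92.5%). Of the 10 Col10a1 UMIs in Drop-seq, 7 lay in this cluster.

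The Igfbp7-Cldn5 clusters were split further, which was decided after they had been seen. In 10x, 29 cells with endothelial marker sums of 9448 CPM and pericyte sums of 1746 CPM had Col4a1 at 2726 CPM, Col1a1 at 798 and Col3a1 at 277. Their 804 Col1a1 UMIs came from 5 of the 29 cells and their 279 Col3a1 UMIs also from 5, while 27 cells had a Col4a1 UMI. The other 26 cells, with endothelial sums of 580 and pericyte sums of 7882 CPM, had Col4a1 at 4385 CPM, Col1a1 at 2689, Col3a1 at 1598 and Col6a3 at 1002, and 25 of them had a Col1a1 UMI. Among macrophage-like cells of the same library, 5 of 247 had a Col1a1 UMI, at a median of 14801 UMIs per cell against 23360 in the 29 cells and 25279 in the 26. In Drop-seq, 21 endothelial-like cells had Col4a1 at 2287 CPM, Col1a1 at 173 and Col3a1 at 260, and the other 59, high in pericyte markers, had Col4a1 at 2658, Col1a1 at 3130 and Col3a1 at 1435. Col4a1 was thus high in both sub-clusters of each library, and Col1a1 and Col3a1 were higher in the sub-cluster with pericyte markers.

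Col11a1 had the reverse distribution: 0.47% of its 10x UMIs lay in the Igfbp7-Cldn5 cluster (36.4 CPM). It stood highest, at 414 CPM (404 to 425), in a cluster of 473 cells led by Clca3a1 and Matn4, then at 332 CPM in 113 cells led by Snhg11 and Malat1, 293 CPM in the dividing cell-like cluster and 261 CPM in 527 cells led by Rorb and Pyy. It stood at 54.1 CPM in microglia-like, 43.8 CPM in neutrophil-like and 14.7 CPM in macrophage-like cells. These cells are not known to make type XI collagen, and whether such values are background was not tested. The 36.4 CPM of the Igfbp7-Cldn5 cluster lay within their range. In Drop-seq it ranged from 202 to 290 CPM over the 5 largest clusters, against 18.6 CPM in the Igfbp7-Cldn5 cluster and 73.3 CPM in the cluster led by Lyz2 and Ctss.

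Most UMIs of Col16a1 and Col18a1 also lay outside the Igfbp7-Cldn5 cluster, although Col18a1 had its highest level inside it. Col16a1 stood at 343 CPM in the Snhg11 cluster and 117 CPM in the Clca3a1 cluster of 10x, against 23.6 CPM in the Igfbp7-Cldn5 cluster and 10.5 CPM in macrophage-like cells. Col18a1 was highest in the Igfbp7-Cldn5 cluster (430 CPM in 10x, 508 in Drop-seq), which held only 16.8% of its 10x UMIs. Next came 99.7 CPM in the Rorb cluster of 10x, against 6.4 CPM in macrophage-like cells, and 374 CPM in the 745 Drop-seq cells led by Areg and Scg2. Of the 8 members highest in the Snhg11 cluster of 10x, 5 were FACIT members. That cluster held 373569 UMIs in all, and some of these places rested on fewer than 3 counts there. These were the FACIT members Col22a1 and Col9a2 (2.68 CPM each), Col4a4 (2.68 CPM) and Col13a1 (5.35 CPM). Of 34 members with at least 20 UMIs in 10x, 18 were highest in the Igfbp7-Cldn5 cluster, among them 7 fibrillar chains. Of 26 such members in Drop-seq, 17 were highest there.

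Col14a1 was found in myeloid clusters, a choice made after its bulk values were seen. In 10x it stood at 62.7 CPM in macrophage-like and 41.8 CPM in microglia-like cells and at no more than 2.4 CPM in the other clusters of at least 50 cells. Those 2 clusters held 387 of its 399 UMIs (97.0%, 94.8% to 98.4%). Clustered at a finer resolution, the classes that kept those 2 names held 19.8% of the UMIs, since a cluster of 155 cells led by C1qa and Rgs1 then had no name. Drop-seq had 14 Col14a1 UMIs in all, at 38.8 CPM in the Lyz2 and Ctss cluster and 24.8 CPM in the Igfbp7-Cldn5 cluster.

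**Figure D5:**
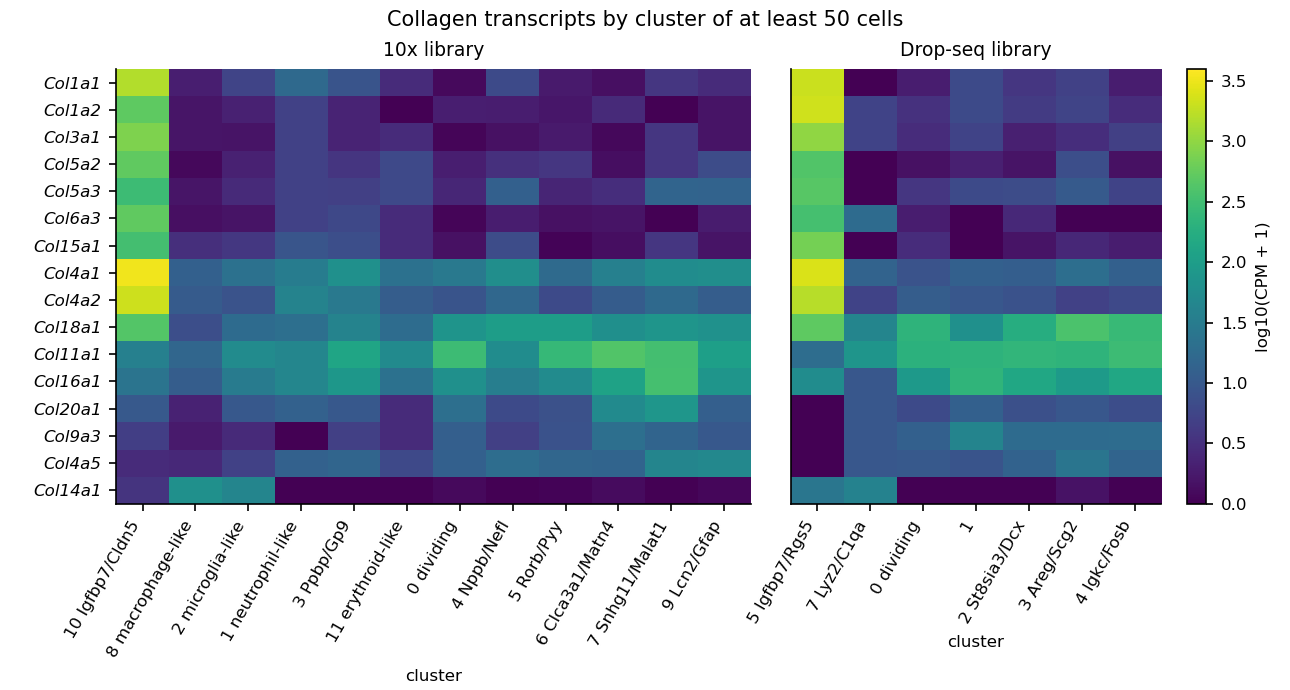
Heat map of log10(CPM + 1) for 16 collagen genes in the clusters of at least 50 cells of the 10x and Drop-seq libraries; colours follow the bar. Col1a1, Col1a2, Col3a1, Col4a1 and Col4a2 peak in the Igfbp7-Cldn5 column of each library (Col4a1 3372 and 2526 CPM), where Col11a1 has 36.4 and 18.6 CPM.

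Some genes that handle collagen were also highest in that cluster. In 10x it held the highest level of 11 of 19 modification genes, 5 of 13 processing genes, 4 of 9 proteoglycans, 4 of 10 receptors and 4 of 9 cleaving enzymes, and in Drop-seq of 15 of 19, 7 of 13, 4 of 6, 5 of 9 and 5 of 9. No minimum of UMIs was set for these counts. Some Drop-seq places rested on very few, such as 1 UMI there for each of Tll1, Loxl1 and Itga2. The share of all genes highest in this cluster was not computed. Serpinh1, the collagen chaperone HSP47, had 93.4% of its UMIs there in 10x (1247 CPM) and 91.0% in Drop-seq (1690 CPM), and the proteoglycan Dcn 97.7% in 10x. Mmp9 had 88.1% of its UMIs there in 10x and 91.5% in Drop-seq. Other members of the lists lay elsewhere: Lair1 was highest in macrophage-like cells (213 CPM) and Ddr1 in the Clca3a1 cluster (131 CPM). Serpinh1, Dcn and Mmp9 are among the genes that lead the 10x cluster, so their place in it is a description.

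Ranked by level, the members kept much of their order between assays, with Spearman's rho of 0.80 over 44 genes between vehicle tumours (CPM per kb) and 10x (CPM), 0.78 over 42 genes with Drop-seq and 0.91 over 42 genes between the 2 single-cell libraries, all as descriptions over genes. Single-cell kits that read transcript ends count a transcript once, so their CPM are set beside CPM per kb. Some members changed place. Col11a1 ranked 27 in the vehicle tumours (0.81 CPM per kb) and 1 and 2 in 10x and Drop-seq, and Col16a1 ranked 16 against 5 and 3. In the other direction, Col6a2 ranked 8 in the vehicle tumours against 25 and 22, Col6a1 4 against 13 and 13, and Col1a1 1 against 6 and 6. These members were picked out after their ranks were seen.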

How the data were processed

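Gene-level read counts of whole tumours, CD11b-positive cells and lines, and UMI counts per gene and barcode for 10x and Drop-seq, were used as deposited; per the submitters' processing notes, the authors used STAR 2.6.1e, featureCounts 1.6.2 and Cell Ranger, with FastQC 0.11.7, cutadapt 1.9.1 and Trim Galore 0.4.2, on the mouse build GRCm38, and which tool made which table is not given in the sources used here. Strand settings of the counting are not given either, so reads of the overlapping starts of Col4a1 and Col4a2 cannot be told apart.

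The collagen genes and all lists were chosen with earlier results of these data known. Named with values in each library were members called at an adjusted p under 0.05, those with an unadjusted p under 0.05 and the 8 highest by CPM per kb of exon (GENCODE), and in single cells the 12 members with most UMIs. Col1a2, Col5a2, Col10a1, Col15a1 and Col19a1 in the tumours, Col1a2 and Col11a2 in the CD11b-positive cells, Col14a1 in single cells, and the handling genes shown as examples where uncalled, were picked after their values were seen.

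Each bulk table was fitted whole with edgeR 4.0.16 in R 4.3.3 (TMM, default filter, robust quasi-likelihood test, Benjamini-Hochberg over all genes tested), without blocks. DESeq2 1.42.0 was the alternative. Left out were 27 entries of the tumour and line tables whose names had become dates (at most 0.281% and 0.360% of a library), 1 blank entry of the CD11b table, and 5 columns of the line table that matched no sample. Cells were kept from 500 UMIs and 300 genes upward in 10x, from 300 UMIs and 200 genes upward in Drop-seq, with up to 20% mitochondrial UMIs, and clustered with scanpy 1.11.5 (30 components, Leiden resolution 0.5). A doublet caller marked 0 barcodes, and none was removed. The tests were also run on simulated data. Intervals and the limit of 3 counts for a value of 0 cover counting error only.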

Additional observations from a re-analysis of the deposited data

Results flagged for a closer look

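Of 18 groups of 4 tumours examined (9 members, 2 treatments), 4 held a library far from its group, with Dixon's ratio of the gap to the range above its 95% critical value. Chance flags about 1 in 20 independent groups. The 9 members were measured in the same tumours, so their flags are not independent and cannot be set against that rate. In 3 of them the library is the second PLX3397 tumour: 2210 CPM of Col3a1 against 651 CPM in the next (ratio 0.908), 743 against 320 CPM of Col5a1 (0.959) and 447 against 185 CPM of Col6a2 (0.938). The other is the fourth vehicle tumour, with 1651 against 1206 CPM of Col18a1 (0.831).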

How the results depend on the processing

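DESeq2 called 1 member in the Ras tumours, 12 between the lines, 18 in the CD11b-positive cells and 4 between tumours with and without Ddx3y, against 0, 0, 12 and 0 in edgeR. With genes of low counts kept in, the last comparison gave 1 member, and the CD11b comparison 16. Leaving out 1 library gave 0 to 9 members between the lines, the 9 without Ras line 2, and 0 to 1 by Ddx3y, the 1 without the third vehicle tumour. In the CD11b-positive cells it leaves 1 library against 1, a value with no test, and the median log2 fold was 1.65 and 2.30. With the replicate number as a block 0 members were called in the tumours and 0 in the lines. Same-numbered tumours deviated with correlations of 0.11, 0.13, -0.42 and 0.45, and lines with -0.18 and -0.11. The tumour values also carry the Ddx3y split, which follows the replicate numbers. With 2 Ras lines, the deviations from their mean mirror each other, so the line values cannot show whether lines are paired. The numbers were not taken to pair samples. No paired analysis was possible because 1 vehicle library stands against 2 in the CD11b-positive cells.

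Small log2 folds of the tumours changed sign. With the replicate block they were -0.0091 for Col4a1, -0.0037 for Col4a2 and -0.022 for Col6a2. Within the tumours with Ddx3y they were 0.19 for Col3a1, -0.010 for Col4a1, -0.079 for Col4a2 and 0.15 for Col5a1, and within those without it -0.32 for Col6a1 and -0.43 for Col6a2. Leaving out 1 tumour gave -0.85 to 0.12 for Col3a1, -0.14 to 0.24 for Col4a1, -0.10 to 0.23 for Col4a2, -0.72 to 0.022 for Col5a1, -0.31 to 0.41 for Col6a1, -0.40 to 0.28 for Col6a2 and -0.28 to 0.092 for Col18a1. Leaving out 1 line gave -1.62 to 3.66 for Col4a1 and -1.09 to 7.46 for Col6a3. Col22a1 turned to -0.93 without Ras line 1, and Col12a1 turned to 0.15 without Ras line 2. Over all members the tumour median was -0.45 within the tumours without Ddx3y, and the line median 0.62 without PDGF line 2 and -1.09 without Ras line 1. With at least 1000 UMIs and 500 genes per cell, the share of 4 fibrillar genes in the Igfbp7-Cldn5 cluster of 10x was 95.1%, against 95.7%. The cause of these shifts was not tested. No other member given with a log2 fold in these comparisons changed sign, and none lost a call under an alternative that gives a test. The median of the tumours lay between -0.14 and 0.13 over the libraries left out. The depth of Drop-seq limits genes under 20 UMIs to counts.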
